A study of Mus musculus with 24 samples.

Results

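The cytosolic ribosomal protein genes are the genes for the proteins of the ribosomes that translate nuclear-encoded mRNA. Members were chosen by symbol alone: protein-coding genes named Rpl or Rps with a number and at most a letter a, x or l after it, together with the P stalk genes Rplp0, Rplp1 and Rplp2, the small subunit gene Rpsa and the ubiquitin-like fusion gene Fau. Rps27a, S6 kinase genes and pseudogenes were left out. The rule found 80 members among 21897 protein-coding genes and 55401 genes in all, 49 of the large and 31 of the small subunit. Gastrocnemius muscle was taken from male C57BL6 mice 24 h after sham treatment or a scald of 25% of the total surface. Young mice were 5 and adult mice 11 weeks old at that time. There were 3 mice in each of the 4 groups of age and treatment, with 12 separate libraries made from poly-A RNA. All mice had isoflurane and buprenorphine, and burned mice were also given lactated Ringer's solution into the peritoneum, so that burn and fluid cannot be told apart.

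Ribosomal proteins assemble with ribosomal RNA in the nucleolus into a small subunit, which reads the mRNA, and a large subunit, which joins the amino acids. Their mRNAs carry a run of pyrimidines at the very 5′ end, the TOP motif, through which mTOR signalling sets how strongly they are translated, so that translation of these mRNAs can change without a change in their level. Striated muscle is known for Rpl3l, a paralog that takes the place of Rpl3 in its ribosomes, and for Eef1a2, a paralog of the elongation factor gene Eef1a1.

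The sequence at the annotated start of a gene is shown here because the TOP motif by which this family is known is looked for there. RefSeq promoter sequences (GRCm38.p6) were matched by symbol for 61 members, and 19 members, among them Rpl3, Rplp1 and Rps20, had no entry in the table used. A C followed by at least 4 pyrimidines stood exactly at an annotated start in 14 of the 61 members (23%), against 3.01% of all 27025 genes of the table. Within 5 bases either side of the start it was present in 29 members (47.5%), against 21.2% of all genes. Each line below gives 30 bases, 15 before the start and 15 from it on, and capitals mark the longest run of C and T that reaches within 5 bases of the start. The 8 genes were chosen because the results name them.
Rplp2: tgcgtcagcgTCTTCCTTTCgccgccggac
Rps6: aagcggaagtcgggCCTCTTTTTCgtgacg
Rps9: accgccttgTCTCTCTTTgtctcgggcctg
Rps27l: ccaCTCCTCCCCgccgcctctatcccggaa
Rps25: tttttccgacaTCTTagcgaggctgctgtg
Rpl26: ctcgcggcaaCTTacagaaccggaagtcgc
Rpl39: cctaagctccgCCTCTagcgacttcttcta
Rpl3l: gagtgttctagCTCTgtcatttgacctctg
The runs of Rplp2 and Rps6 held 10 bases each and those of Rps9 and Rps27l 9 bases each. The run of Rpl3l, the muscle paralog, held 4 bases, and that of Rpl26 held 3. The runs of Rplp2, Rps6, Rps9 and Rpl39 include the annotated start base. Those of Rps27l, Rps25, Rpl26 and Rpl3l end before it, so that by this annotation they lie outside the mRNA. These windows lie at chr7:141447636-141447665 (Rplp2, plus strand), chr4:86857353-86857382 (Rps6, minus), chr7:3704026-3704055 (Rps9, plus), chr9:66946071-66946100 (Rps27l, plus, the upstream of its listed starts), chr9:44407699-44407728 (Rps25, plus), chr11:68901551-68901580 (Rpl26, plus), chrX:37085208-37085237 (Rpl39, minus) and chr17:24727811-24727840 (Rpl3l, plus, the upstream of its listed starts). Over 250 bases before and 50 after the start, on either strand, the letters CCGGAAG (an ETS motif) were found in 25 members (41%) against 9.93% of all genes, GGGCGG (an SP1 motif) in 37 (60.7%) against 38.2%, and AAGATGGC (a YY1 motif) in 6 (9.84%) against 3.19%. A match describes letters, not a bound site.

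Counts per library came to 4392605 to 5688512, and no pair of libraries was identical. The library of young burn replicate 2 stood apart. The SD of its deviations from each gene's mean over libraries was 0.61 on the log2 scale, against 0.30 to 0.42 in the other 11, and its scaling factor by TMM (trimmed mean of M values) was 1.19, with 0.825 for young sham replicate 3 and 0.938 to 1.05 for the rest. Young sham replicate 3 also had the highest share of mitochondrial transcripts (15.1%) and the highest sum of muscle fibre markers. The study set an unnamed young burn animal aside in a figure, so results are given with all 12 libraries and with the 11 without this library. Summed levels of 12 muscle fibre markers were high in every group, at 177410 to 246760 CPM (counts scaled to library size) in young sham, 118560 to 157510 in young burn, 143310 to 159800 in adult sham and 144860 to 169590 in adult burn. Of 4 keratinocyte markers Krt1, Krt14 and Krt5 were at 0 in all groups. The other, Krt10, gave 9.26 to 10.9 CPM in young sham and 5.17 to 5.51 CPM in adult sham. It gave 4.56 to 7.17 CPM in young burn and 4.83 to 6.54 CPM in adult burn. By edgeR's quasi-likelihood test with 12 libraries Krt10 was called higher in young than in adult sham (0.94, adjusted p = 0.0276), where 3.76% of all genes were called. Other cell types moved with the groups: 7 fibroblast markers summed to 7113 to 9314 CPM in young and 2971 to 4114 CPM in adult libraries, and 11 macrophage and leukocyte markers to 481 to 812 CPM in young burn against 284 to 381 CPM in young sham, 345 to 476 CPM in adult burn and 290 to 355 CPM in adult sham. Sums of 5 satellite cell markers ran from 52.1 to 92.6 CPM in young and 37.5 to 50.5 CPM in adult libraries. Those of 7 neutrophil markers ran from 8.96 to 27.02 CPM in young burn, 1.82 to 3.17 CPM in young sham, 5.96 to 13.1 CPM in adult burn and 1.697 to 4.96 CPM in adult sham. Of these 7, 2 had enough counts to be tested. Ly6g was at 0 throughout, and Elane was detected in both sham groups but at 0 in both burn groups. Sums of 6 endothelial markers ran from 359.9 to 488 CPM in young burn and 292 to 322 CPM in adult burn. In young sham they ran from 304 to 415 CPM, overlapping young burn, and in adult sham from 301 to 328 CPM. Those of 5 Schwann cell markers ran from 180 to 314 CPM in young sham and 137 to 335 CPM in young burn. In adult sham they ran from 137 to 154 CPM and in adult burn from 114 to 157 CPM. Adipocyte and red blood cell sums are not reported here. The part of these cell types in the results on ribosomal protein genes was not tested, and in bulk tissue fewer cells of a type and less RNA per cell cannot be told apart. Nothing in the labels says more of the replicates than that they are separate mice.

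Ribosomal protein mRNA was abundant and even. Members took 2.63% ± 0.12 of all counts in young sham, 2.93% ± 0.06 in young burn, 2.698% ± 0.053 in adult sham and 2.86% ± 0.11 in adult burn (SD, n = 3 each). The share lay between 2.49% and 2.71% in young sham and between 2.87% and 2.99% in young burn, and between 2.65% and 2.75% in adult sham and between 2.78% and 2.99% in adult burn, so that it was higher after burn in every library of both ages. Transcripts of the mitochondrial genome, which share this total, took 10.2% to 15.1% of counts in young sham and 7.68% to 10.8% in young burn, and 10.2% to 11.9% in adult sham and 7.64% to 10.1% in adult burn. With those transcripts taken out of the total, the shares were 2.99% ± 0.05, 3.24% ± 0.08, 3.03% ± 0.09 and 3.14% ± 0.14 (SD, n = 3) in the same order, and adult burn and adult sham then overlapped. Reads on 297 pseudogene rows named after members came to 0.371% to 0.476% of the reads on members and those rows together. Pseudogene rows under other names were not included. The authors' counting mode leaves out reads that fit several places, so reads shared by a member and a copy are in neither row. The shares here and the levels below lack those reads, and their number is not known.

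After a filter on low counts (edgeR's filterByExpr), 76 members were tested. The 4 others were Rpl10l, the testis paralog of Rpl10, with 0 counts in all libraries together, Rpl39l, the testis paralog of Rpl39, with 10, Rpl24 with 29 and Rps10 with 74. Rpl24 and Rps10 are core ribosomal proteins. In the annotation, 71.5% of the principal transcript of Rpl24 and 53.55% of that of Rps10 coincide with exons of another gene on the same strand (Gm28037 and the read-through gene RPS10-NUDT3), and reads that fit more than 1 gene are not counted by the authors' counting mode, so these low counts are uncertain as levels. The same holds for Rpl13a, with 441 counts in all libraries and 59.3% of its transcript shared with Gm45713. Exons of a gene on the opposite strand cover 68.3% of the transcript of Rpl35, 57.45% of Rpl30, 55.4% of Rpl23a, 52.2% of Rps25, 46.6% of Rpl5 and 40.04% of Rpl31, and the sources used here do not say whether strand was used in counting.

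Levels per length are CPM divided by the principal transcript's length in kilobases. The median member stood at 396 CPM per kb in young sham, 364 in young burn, 359 in adult sham and 384 in adult burn. The highest over the 4 group means was Rplp1 of the P stalk, the arm of the large subunit that receives elongation factors, with 1721 CPM per kb. It was followed by Rps27 with 1186, Rps15 with 1088, Rpl41 with 988 and Rps14 with 971 CPM per kb. The lowest tested were Rpl13a with 7.03 CPM per kb, Rps15a with 56.0, Rpl23a with 87.7, Rpl15 with 95.2 and Rpl30 with 102. The annotated principal transcript of Rps15a is 5179 bases long, against 499 bases for Rplp1, and that length enters the value.

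**Figure D1:**
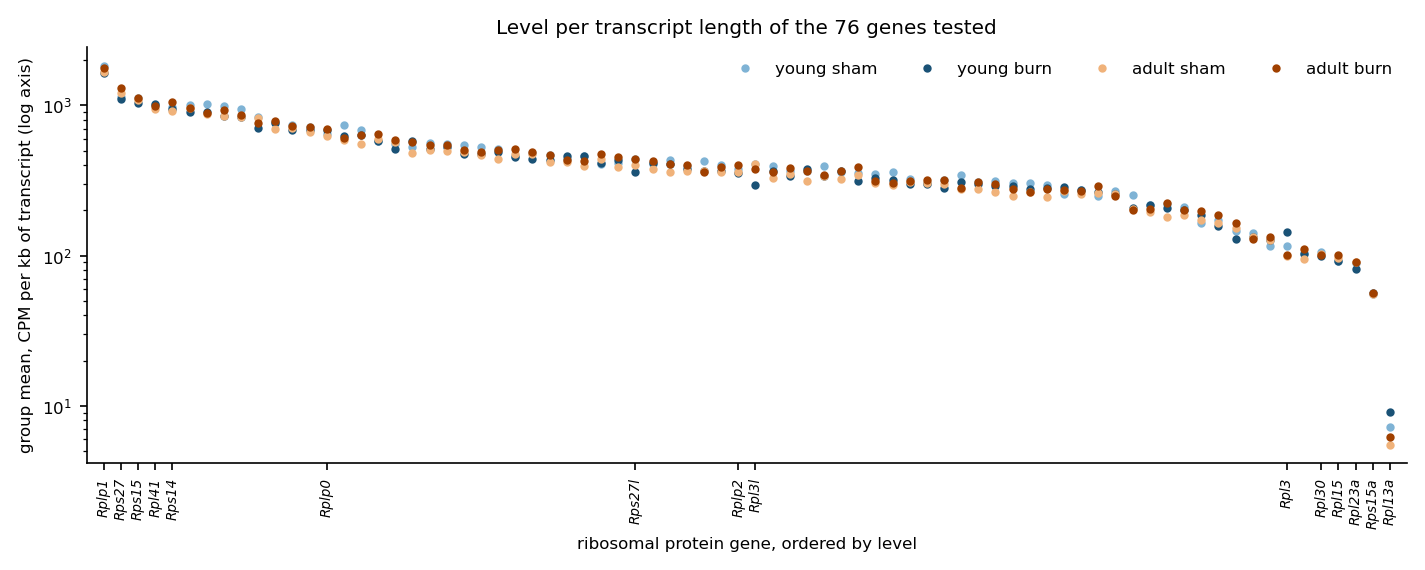
Mean level of each of the 76 tested ribosomal protein genes in the 4 groups, in CPM per kb of principal transcript on a log axis, with genes ordered by level and some of them named, from Rplp1 (1721 over the group means) to Rpl13a (7.03). The 4 dots of a gene lie close together for nearly all genes, and Rpl3 and Rpl3l are among those with dots that part.

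The SD of log2 CPM over the 12 libraries had a median of 0.12 in the 76 members. Over the range of mean level from 153 to 736 CPM, the 5th to 95th percentile of members, it was 0.12 in 68 members and 0.26 in 687 other genes, whose median level was 238 CPM against 346 CPM in members. Among members it was lowest in Rpl22 at 0.06, a large subunit gene, and highest in Rpl13a at 0.34, Rpl3l at 0.31, Rpl3 at 0.25 and Rpl21 at 0.18. A library's median deviation over members ran from -0.09 to -0.02 in adult sham, -0.00079 to 0.08 in adult burn and -0.03 to 0.13 in young sham. In young burn it was 0.05 in replicates 1 and 3 and -0.16 in replicate 2.

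**Figure D2:**
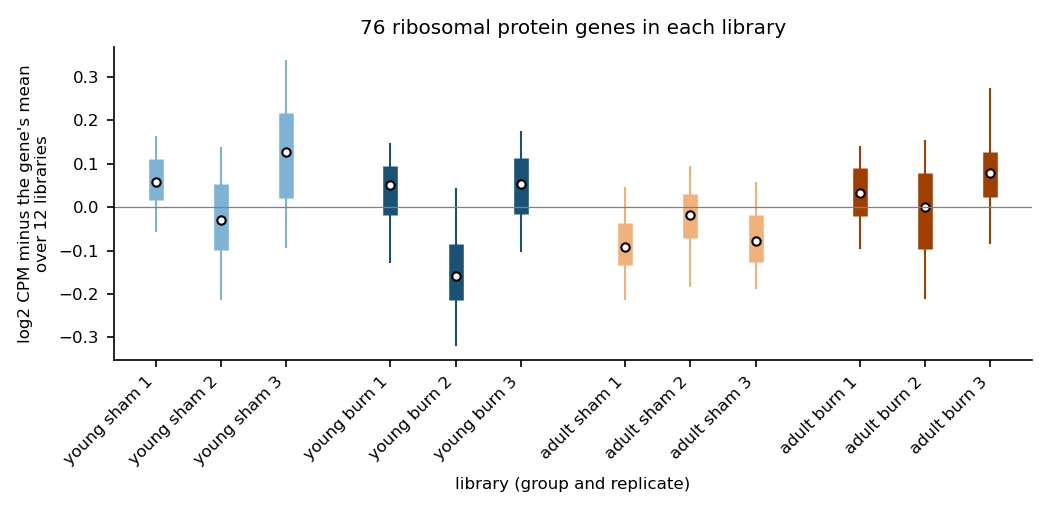
Log2 CPM of the 76 tested members minus each gene's mean over the 12 libraries, by library. Dots are medians, thick bars run from the 25th to the 75th percentile of genes and thin lines from the 5th to the 95th; young burn replicate 2 has the lowest median (-0.16) and young sham replicate 3 the highest (0.13).

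Age in sham mice. The comparison of young sham with adult sham asked for basal differences between the ages. The median member was higher by 0.12 on the log2 scale in young sham and by 0.11 with 11 libraries, but stood at -0.03 when libraries were scaled by size alone in place of TMM. Over all genes tested with TMM the median was 0.01 with 12 libraries. The median was 0.15 in 46 large subunit genes and 0.09 in 30 small subunit genes. Of the 76 members 62 had a positive fold change (81.6%), against 51.1% of all genes tested, and 32 had one with size alone. The largest change of any member was 0.39 (Rpl13a). By edgeR's quasi-likelihood test with Benjamini-Hochberg adjustment, 0 of 76 members were called at an adjusted p under 0.05, where 3.76% of all genes were called. An unadjusted p under 0.05 was reached by 8 members (10.5%), below the 20.2% of all genes, and DESeq2 called 1, where it called 5.39% of all genes. Shares for DESeq2, here and below, are of the genes to which it gave an adjusted p. With the 11 libraries 2 members were called, both higher in young sham and Rpl26 among them, where 11.8% of all genes were called.

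Rpl26, a large subunit gene near the exit of the peptide tunnel, gave 424, 404 and 521 CPM in young sham and 357, 359 and 348 CPM in adult sham (replicates 1 to 3). Young sham replicate 3 was the highest of these, and the groups did not overlap. Its difference was 0.34 ± 0.12 (SE, adjusted p = 0.139) with 12 libraries and 0.33 ± 0.10 (adjusted p = 0.0454) with 11. Among the next smallest p-values with 12 libraries were those of Rpl27 (0.29, adjusted p = 0.139) and Rpl36a (0.29, adjusted p = 0.194), both higher in young sham and none called. Rpl39 (0.31), Rpl21 (0.30) and Rpl13a (0.39) were also among the largest changes, at adjusted p-values of 0.209, 0.233 and 0.388. On the TMM scale, libraries of young sham lay above all of adult sham for 29 of 76 members, where 15.7% of all genes did so. They lay below them for 2 (Rpl5, which with Rpl11 and 5S RNA binds MDM2, and Rpl9), where 15.5% of all genes did. With size alone 32 of 76 members had a positive fold change, and overlap was not counted on that scale.

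Age after burn. Young burn was compared with adult burn to ask whether burned muscle differed by age. The median member was lower by 0.05 on the log2 scale in young burn with 12 libraries and higher by 0.02 with 11, so that its sign rested on young burn replicate 2, and with size alone it was 0.05 with 12 libraries. The member called was Rpl3, in both sets of libraries, where 10.8% of all genes were called with 12 libraries and 20.7% with 11. DESeq2 called 4 members, Rpl3 higher and Rps20, Rps27l and Rps25 lower in young burn, where it called 11.2% of all genes.

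Rpl3 (ENSMUSG00000060036.14, chr15:80077791-80091868 on GRCm38) encodes the large subunit protein that reaches towards the peptidyl transferase centre. It gave 195, 166 and 217 CPM in young burn, 148, 139 and 121 CPM in adult burn, 169.5, 150.5 and 149.7 CPM in young sham and 129, 148 and 126 CPM in adult sham. Every young burn library lay above every adult burn library, and every young sham library above every adult sham library. The difference between the burn groups was 0.50 ± 0.13 (SE, adjusted p = 0.0287) with 12 libraries and 0.61 ± 0.12 (adjusted p = 0.00312) with 11. With 12 libraries the call was lost without adult burn replicate 2 or 3 or young burn replicate 1 or 3, at adjusted p-values of 0.0827, 0.129, 0.0601 and 0.108, and also without the filter on low counts (0.0513) and in a fit of the burn groups alone (0.104). Between the sham groups it was 0.22 (adjusted p = 0.374) with 12 libraries.

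Rps20, a small subunit gene, gave 503, 433 and 499.7 CPM in young burn and 589, 579 and 674 CPM in adult burn, with no overlap. It was lower by 0.36 on the log2 scale with an SE of 0.12 (log2 fold change -0.36, adjusted p = 0.0694 with 12 libraries and 0.0732 with 11). Rps25, a small subunit gene used in internal initiation, gave 403, 392 and 417 CPM in young burn and 484, 515 and 486 CPM in adult burn. Its log2 fold change was -0.29 ± 0.11 (SE, adjusted p = 0.107), and Rps25 shares exon sequence with genes of the opposite strand as stated above. Neither was called by edgeR, nor were Rpl13a (0.55, adjusted p = 0.116) and Rpl3l (-0.35, adjusted p = 0.238), which were among the largest changes. Young burn libraries lay above all adult burn libraries for 2 of 76 members (Rpl3 and Rpl13a), where 15.7% of all genes did so, and below them for 14, where 14.6% of all genes did. With 11 libraries these counts were 17, where 26.6% of all genes did so, and 14, where 26.9% did.

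Over both treatments, an age term adjusted for treatment used all 6 mice of each age. It called 2 of 76 members with 12 libraries, Rpl3 and Rpl13a, both higher in young mice, where 19.9% of all genes were called. With 11 libraries it called 6, all higher in young mice, where 29.3% of all genes were called. DESeq2 called Rpl3 (higher) and Rps20 (lower in young mice), where it called 16.3% of all genes. Rpl3 was higher by 0.36 ± 0.10 (SE, adjusted p = 0.0192) with 12 libraries and by 0.39 ± 0.09 (adjusted p = 0.00566) with 11, and with 12 libraries the call was lost without adult burn replicate 3 (adjusted p = 0.0535) and with scaling by library size alone (adjusted p = 0.0686). Rpl39, whose short protein lines the peptide tunnel, was higher by 0.22 ± 0.10 (adjusted p = 0.124) with 12 libraries and by 0.27 ± 0.07 (adjusted p = 0.0125) with 11. Rpl21 (0.24), Rpl36a (0.22) and Rpl26 (0.24) were also called with 11 libraries, at adjusted p-values of 0.0282, 0.0295 and 0.0378.

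Rpl13a, a large subunit gene whose protein also takes part in the silencing of inflammatory mRNAs, had few reads. It gave 7.79, 6.08 and 9.02 CPM in young sham, 9.14, 10.2 and 9.197 CPM in young burn, 6.204, 5.66 and 5.51 CPM in adult sham and 5.53, 5.24 and 8.72 CPM in adult burn. Adult burn replicate 3 lay above young sham replicates 1 and 2, so that the ages overlapped. The age term was 0.48 ± 0.16 (SE, adjusted p = 0.0461) with 12 libraries and 0.44 ± 0.17 (adjusted p = 0.0641) with 11. Leaving out each library in turn lost the call in 10 of 12 cases (adjusted p = 0.0571 to 0.107), all but those of adult burn replicate 3 and young sham replicate 2.

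Burn in adult mice. Adult burn was compared with adult sham for the effect of burn in adults. The median member was higher by 0.10 on the log2 scale after burn, against 0.00 over all genes tested, and 68 of 76 members had a positive fold change (89.5%), against 50.1% of all genes. The median was 0.09 in large and 0.11 in small subunit genes, and the largest change of a member was 0.31. By edgeR 0 of 76 members were called, where 0.00806% of all genes were called, and with 11 libraries, which pool the spread without young burn replicate 2, again 0, where 0.909% of all genes were called. An unadjusted p under 0.05 was reached by 2 members with 12 libraries (2.63%, against 6.87% of all genes) and by 6 with 11 (7.89%, against 13.7%), and DESeq2 called 0, where it called 0.0245% of all genes. Adult burn libraries lay above all adult sham libraries for 30 of 76 members, where 10.3% of all genes did so, and below them for 1 (Rpl3l), where 9.74% did. Both this comparison and that of the sham groups use the adult sham libraries, whose median deviations over members were all below 0 as given above. Adult sham libraries held 4392605 to 4727802 counts and adult burn libraries 5585064 to 5688512, with no overlap. The study's RNA quality report gives no integrity number for any sample, and its ratio of large to small ribosomal RNA was highest in adult sham replicates 1 and 3. The part of depth and RNA quality in these results was not tested.

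Rpl27, a large subunit gene mutated in some Diamond-Blackfan anaemia, gave 153, 167 and 174 CPM in adult burn and 138, 123 and 136 CPM in adult sham. All burn libraries were the higher, at a difference of 0.31 ± 0.10 (SE, adjusted p = 0.603 with 12 libraries and 0.137 with 11). Rps9, a small subunit gene, gave 510.3, 549 and 507 CPM in adult burn and 425, 452 and 439 CPM in adult sham, a difference of 0.25 ± 0.10 (adjusted p = 0.695). Rpl18 (0.24), Rpl11 (0.21) and Rpl10 (0.22) followed, at adjusted p-values of 0.72, 0.745 and 0.754. None of these was called.

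Burn in young mice. Young burn was compared with young sham for the effect of burn in young mice. The median member was lower by 0.08 on the log2 scale with 12 libraries and lower by 0.01 with 11, so that the lower median rested on young burn replicate 2, and with size alone it was 0.16 with 12 libraries. With 12 libraries 0 of 76 members were called by edgeR, where 0.0645% of all genes were called, and with 11 again 0, where 0.664% of all genes were called. An unadjusted p under 0.05 was reached by 3 members with 12 libraries (3.95%, against 20.3% of all genes) and by 2 with 11 (2.63%, against 16%), and DESeq2 called 1 (Rps27l, lower), where it called 4.62% of all genes. Young burn libraries lay above all young sham libraries for 3 of 76 members (Rpl10a, Rpl13a and Rps9), where 10.5% of all genes did so, and below them for 12, where 11.2% did. With 11 libraries these counts were 8, where 16.8% of all genes did so, and 12, where 15.7% did.

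Rps27l (ENSMUSG00000036781.13, chr9:66946086-66949516) is a paralog of Rps27 known as a target of p53. It gave 173, 180.4 and 186 CPM in young burn, 215, 221 and 225 CPM in young sham, 223, 224 and 212 CPM in adult burn and 189, 207 and 208 CPM in adult sham. The young burn libraries, replicate 2 included, were the lowest of all 12. The log2 fold change of young burn was -0.29 ± 0.10 (SE) against young sham (adjusted p = 0.149 with 12 libraries and 0.177 with 11) and -0.29 ± 0.10 against adult burn (adjusted p = 0.0834 and 0.052). Its parent Rps27 gave 393, 386 and 398 CPM in young sham and 384, 366 and 396 CPM in young burn, and those groups overlapped. Rpl3, with the values given above, had a log2 fold change of 0.30 ± 0.13 (SE, adjusted p = 0.224) for burn in young mice with 12 libraries and 0.41 ± 0.12 (adjusted p = 0.114) with 11. Rpl21 (-0.27, adjusted p = 0.266), Rpl26 (-0.24, adjusted p = 0.286) and Rpl13a (0.33, adjusted p = 0.418) were not called either.

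**Figure D3:**
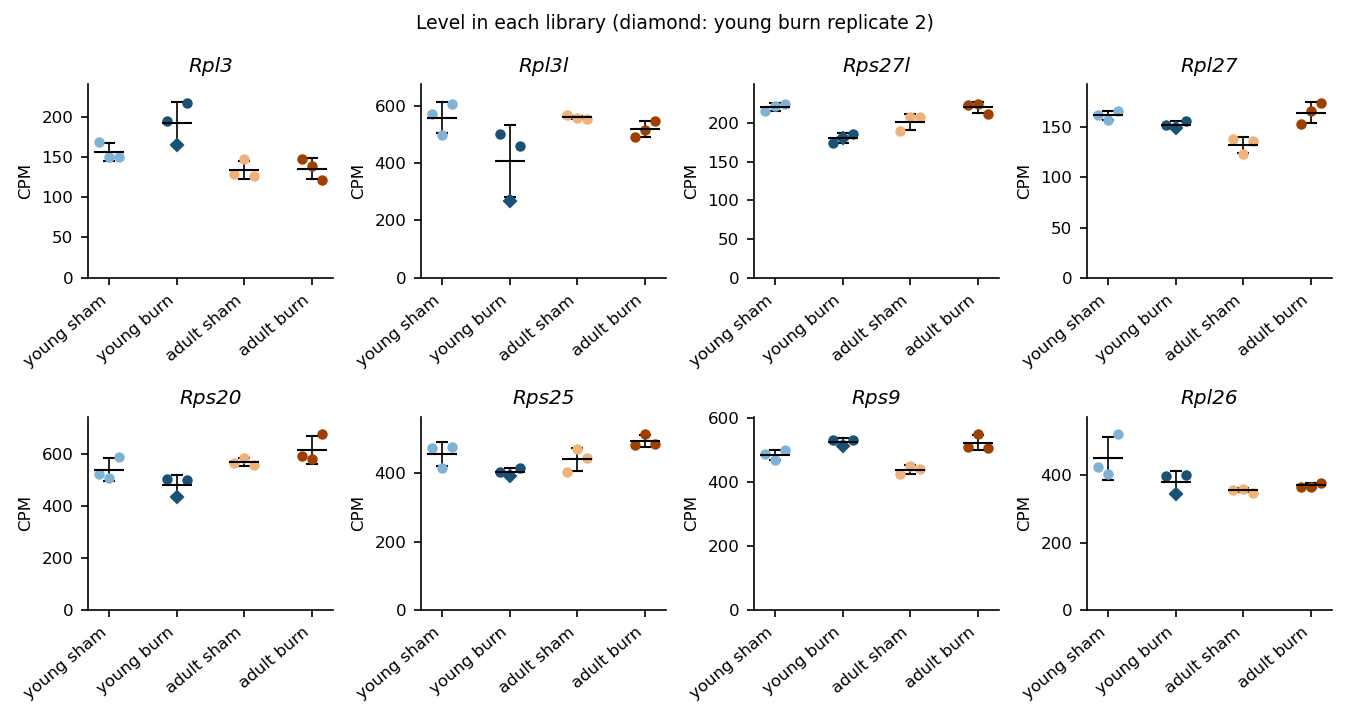
Level in CPM of 8 ribosomal protein genes in each library, by group. Dots are mice, a diamond is young burn replicate 2, horizontal lines are means and bars are SDs (n = 3); Rpl3 is highest in young burn (166 to 217 CPM), Rps27l lowest there (173 to 186 CPM), and Rpl3l has a single low library, young burn replicate 2 (266 CPM).

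The muscle paralog. Rpl3l (ENSMUSG00000002500.15, chr17:24727820-24736143) had more reads than Rpl3 in every library, from transcripts of similar length (1375 and 1351 bases). It gave 571, 498 and 606 CPM in young sham, 501, 266 and 458 CPM in young burn, 567, 556 and 555 CPM in adult sham and 493, 517 and 549 CPM in adult burn. Young burn replicate 2 held the lowest value, and adult burn lay below adult sham in every library. Summed muscle fibre markers moved between the young groups too, as given above, and their part in the values of Rpl3l was not tested. The log2 fold change of young burn against young sham was -0.45 ± 0.19 (SE, adjusted p = 0.202) with 12 libraries and -0.21 ± 0.11 (adjusted p = 0.373) with 11, and the gene was not called in any of the 7 comparisons.

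The level of Rpl3l over that of Rpl3 was 3.37, 3.31 and 4.05 in young sham, 2.56, 1.61 and 2.11 in young burn, 4.39, 3.77 and 4.39 in adult sham and 3.34, 3.72 and 4.53 in adult burn. The young burn libraries were the lowest of all 12, also without replicate 2. On the log2 scale the group means were 1.83 ± 0.16, 1.04 ± 0.34, 2.06 ± 0.13 and 1.93 ± 0.22 (SD, n = 3) in the same order. In an exact permutation test over libraries, two-sided, with age labels permuted within treatment, young libraries were lower by 0.56 (difference -0.56, p = 0.01), and without young burn replicate 2 by 0.47 (difference -0.47, p = 0.01). The smallest p that the 400 arrangements of 12 libraries allow is 0.005. With treatment labels permuted within age, the exact difference of burn from sham was -0.46 (p = 0.03) with 12 libraries and -0.37 (p = 0.04) with 11. The p of the burn difference rose past 0.05 when any single young sham library was left out (exact p = 0.055, 0.055 and 0.065 for replicates 1 to 3). Adjusted over these 2 effects by Benjamini-Hochberg, the p-values of 12 libraries were 0.02 for age and 0.03 for burn. The age difference averages sham and burned mice and the burn difference averages young and adult mice, so that young burn enters both. Between the sham groups the ratios overlapped, with young sham replicate 3 (4.05) above adult sham replicate 2 (3.77). Adult burn and adult sham overlapped too. Of the other pairs of paralog and parent, Rpl10l and Rpl39l were at or near 0 in all groups, beside 332 to 386 CPM for Rpl10 and 169.8 to 210.15 CPM for Rpl39 in the group means. Rps4l is annotated as a transcribed processed pseudogene and is no member, with 441 counts in all. It gave 3.16 to 10.2 CPM over the libraries, beside 389 to 490.1 CPM for its parent Rps4x.

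The burn effect by age. The difference of both burn effects was negative for 71 of 76 members with 12 libraries and for 60 with 11, with medians of -0.17 and -0.10, against 0.02 and 0.01 over all genes tested, but with size alone the median was 0.08 and 19 members were negative. By edgeR 0 of 76 members were called, where 0% of all genes were called, and with 11 libraries again 0, where 0.0949% of all genes were. An unadjusted p under 0.05 was reached by 3 members with 12 libraries (3.95%, against 7.2% of all genes) and by 4 with 11 (5.26%, against 11.1%), and DESeq2 called 0, where it called 0.00351% of all genes. Burn libraries lay above all sham libraries in adult and below all in young mice for 6 of 76 members, where 0.29% of all genes did so. Among the smallest p-values were those of Rps27l (-0.42 ± 0.14, SE, adjusted p = 0.683), Rpl27 (-0.40 ± 0.15, adjusted p = 0.683), Rps25 (-0.34 ± 0.16, adjusted p = 0.684) and Rpl36 (-0.34 ± 0.18, adjusted p = 0.7).

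A burn term adjusted for age, which uses all 6 burned and 6 sham mice, called 0 of 76 members by edgeR with 12 libraries, where 0.717% of all genes were called, and 0 with 11, where 2.15% of all genes were. An unadjusted p under 0.05 was reached by 2 members with 12 libraries (2.63%, against 19.5% of all genes) and by 5 with 11 (6.58%, against 16.6%), and DESeq2 called 1 (Rps9, higher after burn), where it called 2.92% of all genes. Rps9 gave 532, 512 and 532 CPM in young burn and 488, 467 and 500.03 CPM in young sham, so that with the adult values above burn libraries lay above sham libraries at both ages. Its burn term was 0.18 ± 0.08 (SE, adjusted p = 0.218) with 12 libraries and 0.20 ± 0.07 (adjusted p = 0.135) with 11. Rps6, whose protein is the classic substrate of the S6 kinases, had a burn term of 0.19 ± 0.08 (adjusted p = 0.225). Rps29 (-0.18, adjusted p = 0.282) and Rpl3l (-0.28, adjusted p = 0.275) had the smallest p-values of those with a negative term. The P stalk genes had burn terms of 0.11 (Rplp0), -0.04 (Rplp1) and 0.04 (Rplp2), with adjusted p-values of 0.505, 0.837 and 0.832.

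**Figure D4:**
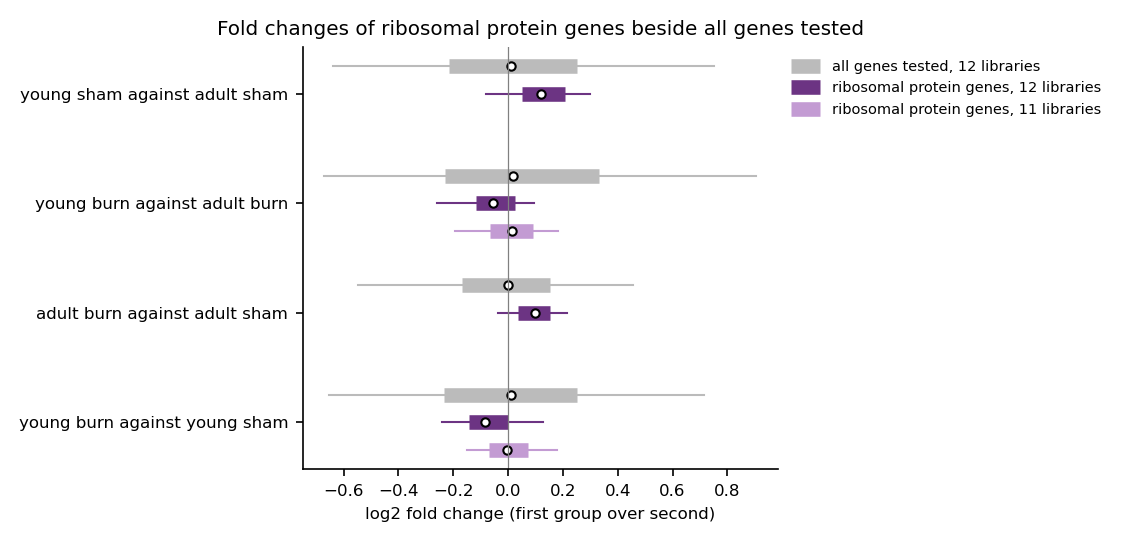
Log2 fold changes of the tested ribosomal protein genes (dark with 12 libraries, light with the 11 without young burn replicate 2, drawn where young burn is compared) beside all 12408 genes tested with 12 libraries (grey), in the 4 comparisons of groups. Dots are medians, thick bars the 25th to 75th and thin lines the 5th to 95th percentile of genes; member medians are 0.12, -0.05, 0.10 and -0.08 from top to bottom with 12 libraries and TMM, and -0.03, 0.05, 0.09 and 0.16 with size alone, and the members' spread is narrower than that of all genes.

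With library size alone in place of TMM, the median of all genes shifted by -0.14 in the sham groups, 0.10 in the burn groups, 0.24 for burn in young mice, 0.25 for the difference of both burn effects and 0.11 for the burn term, and the burn term of members had a median of 0.13. Set against the median of all genes on that scale, members stood at 0.11, -0.07, -0.09, -0.19 and 0.02 in the same order. In adult mice the shift was -0.01, and the member median for burn stayed positive at 0.09.

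The other genes of the pathway were read from fixed lists. Near misses of the naming rule included Rps3a1, Rack1, a scaffold protein of the small subunit, and the ubiquitin fusion gene Rps27a. Rpl22l1, the paralog of Rpl22, was called in the age term and lower in young mice (-0.36 ± 0.10, SE, adjusted p = 0.0195), at 43.1 ± 6.86 CPM in young sham, 54.4 ± 5.34 in young burn, 58.1 ± 6.801 in adult sham and 66.6 ± 4.46 in adult burn (SD, n = 3). It was 1 of 7 near misses tested that passed with 12 libraries, where 19.9% of all genes were called. Rpl22 itself lay between 259.8 and 293 CPM in all libraries.

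Genes of ribosome biogenesis process ribosomal RNA and assemble subunits in the nucleolus. Of 47 tested, 11 were called lower and 0 higher in young mice in the age term with 12 libraries, and 32 lower and 0 higher with 11, against the 19.9% and 29.3% of all genes called. The median was -0.28 with 12 and -0.39 with 11 libraries, beside 0.03 and 0.07 for the ribosomal protein genes. With library size alone 6 were called lower and the median was -0.28. Noc2l, a nucleolar factor, was lower by 0.82 on the log2 scale (-0.82 ± 0.12, SE, adjusted p = 0.00043, 12 libraries), Bysl, a factor of small subunit maturation, by 0.51 (-0.51 ± 0.11, adjusted p = 0.0069) and Rrp9, of the U3 particle, by 0.43 (-0.43 ± 0.09, adjusted p = 0.00396). With 11 libraries Tsr1 (-1.29 ± 0.18, adjusted p = 0.000111), Heatr1 (-0.93 ± 0.14, adjusted p = 0.000289) and Gnl3 (-0.77 ± 0.11, adjusted p = 0.000157) were called too, each lower in young mice. For burn, 43 of 47 had a positive term with 12 libraries (median 0.19) and 32 with 11 (median 0.07), against 50.5% and 50.9% of all genes. In young mice alone the median for burn was 0.21 with 12 libraries and -0.05 with 11, so that its sign rested on young burn replicate 2.

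Of 15 RNA polymerase I genes, which make the ribosomal RNA precursor, 1 was called in the age term with 12 libraries and 3 with 11, all lower in young mice. Of all genes 19.9% and 29.3% were called. The gene called with 12 libraries was Rrn3 (-0.36 ± 0.09, SE, adjusted p = 0.0155), and with 11 Polr1a and Taf1a were called lower as well (-0.41 and -0.50, adjusted p = 0.0112 and 0.0315). Of 25 other TOP mRNA genes 3 were called in the age term with 12 libraries, where 19.9% of all genes were, all higher in young mice: Pabpc1, the poly-A binding protein gene (0.54 ± 0.08, adjusted p = 0.000506), Eef1a1 (0.47 ± 0.12, adjusted p = 0.0134) and Vim, the mesenchymal filament gene (0.54 ± 0.14, adjusted p = 0.0147). With 11 libraries 3 of the 25 were called higher and 1 lower, where 29.3% of all genes were called. The median of the 25 was -0.02 with 12 libraries and -0.04 with 11. Eef1a1 stood at 898 ± 136 CPM in young sham, 1289 ± 142 in young burn, 742 ± 38 in adult sham and 815 ± 124 in adult burn, and its muscle paralog Eef1a2 at 1329.9 ± 144, 1178 ± 116, 1429 ± 78 and 1461 ± 172 (SD, n = 3). The ratio of these paralogs was not tested. Fibroblast markers were higher in young mice, as given above, and their part in the values of Vim and Eef1a1 was not tested.

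Of 23 genes of mTOR signalling and TOP control, 2 were called higher and 2 lower in young mice in the age term with 12 libraries, and 2 higher and 9 lower with 11, beside the 19.9% and 29.3% of all genes called. Eif4ebp2, a repressor of cap-dependent translation, was lower in young mice (-0.72 ± 0.12, SE, adjusted p = 0.000841, 12 libraries), as was the mTOR inhibitor gene Tsc1 (-0.51 ± 0.09, adjusted p = 0.0021). Deptor, also an inhibitor, was higher (0.47 ± 0.15, adjusted p = 0.0406), as was Mxd4, a MAX partner (0.40 ± 0.09, adjusted p = 0.00546). Larp1, which binds TOP mRNAs, was called lower in young mice with 11 libraries (-0.34 ± 0.09, adjusted p = 0.0131). In the burn term Eif4ebp1 was higher after burn (1.37 ± 0.24, adjusted p = 0.0233 with 12 libraries, and 1.12 ± 0.18, adjusted p = 0.00546 with 11). Of 77 mitochondrial ribosomal protein genes tested, 3 were called lower in young mice in the age term with 12 libraries and 8 with 11, beside the 19.9% and 29.3% of all genes called, with medians of -0.08 and -0.07.

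**Figure D5:**
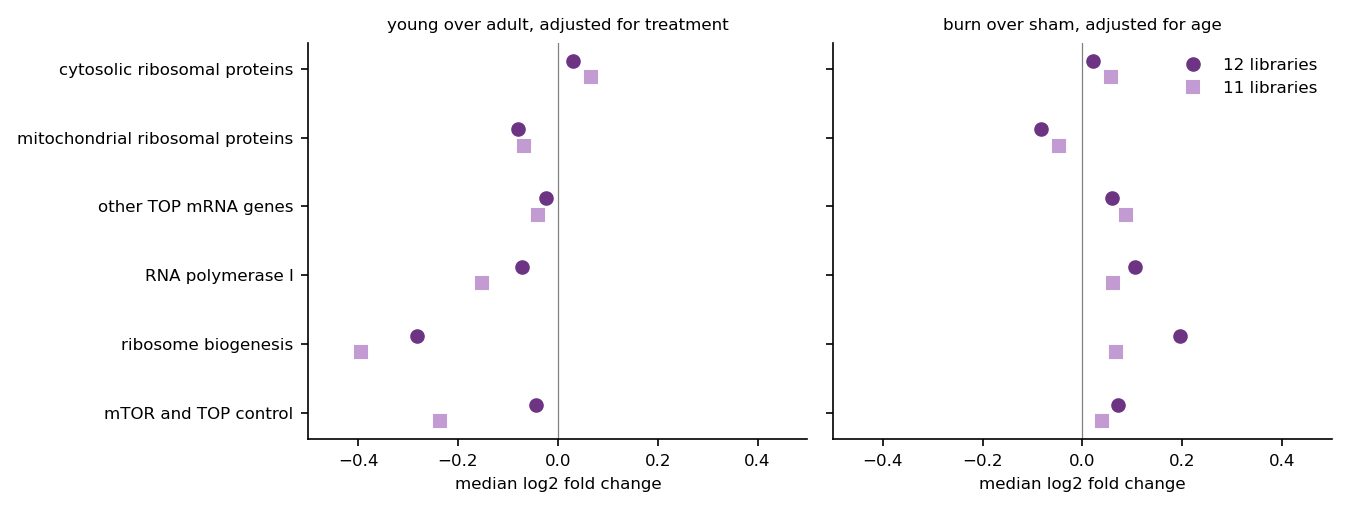
Median log2 fold change of cytosolic ribosomal protein genes and of related lists, young over adult (left) and burn over sham (right), with 12 libraries (dots) and with 11 (squares). In the age panel the ribosome biogenesis genes lie at -0.28 and -0.39 and the ribosomal protein genes at 0.03 and 0.07.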

How the data were processed

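Poly-A RNA of 12 muscles was sequenced in paired reads of 75 bases. Per the submitters' processing notes and the methods, the authors used STAR 2.7.5c on GRCm38, and its GeneCounts option gave the counts for Gencode M25 genes. That option leaves out reads on several genes or places. The deposited values are raw counts per gene, without filter or normalization, and the sources used here do not name the strand setting. Small RNA counts were not used here. Symbols, biotypes and positions came from Gencode M21, where 260 genes had no match.

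Counts were fitted in edgeR 4.0.16 (R 4.3.3): filterByExpr with a minimum count of 10 and minimum total of 15 (12408 genes with 12 libraries, 12651 with 11), TMM scaling, a mean per group (for the age and burn terms, additive effects of both), and the two-sided quasi-likelihood test, adjusted over all tested genes by Benjamini-Hochberg. CPM are scaled by TMM, and whether groups overlapped was read on that scale. Log2 CPM used a prior count of 2, and SE is the log2 fold change over the root of F. DESeq2 1.42.0, other scalings and filters, and leaving out each library were alternatives. The genes to which DESeq2 gave an adjusted p numbered 12223 between the sham groups and also between the burn groups. They numbered 9595 for burn in young mice, 12740 in the burn term and 15367 in the age term. For burn in adult mice and for the difference of both burn effects they numbered 28519. The shares called by DESeq2 therefore do not compare directly between comparisons or with edgeR. The script was tested on simulated data. Figures used matplotlib 3.10.9. Members and lists were chosen with earlier results of these data known. Genes are named if called, if among the 5 smallest p-values or 5 largest changes of a comparison, if a tissue paralog, a P stalk gene or among the 5 highest or lowest levels per length, and some members that the rule would name are not reported here.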

Additional observations from a re-analysis of the deposited data

Results flagged for a closer look

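For 6 members every burned library lay above every sham library in adult mice and below every sham library in young mice, which is why they are listed here, and 0.29% of all genes did the same. The difference of both burn effects, young minus adult, was -0.42 on the log2 scale for Rps27l, -0.40 for Rpl27, -0.30 for Rpl26, -0.27 for Rpl7a, -0.25 for Rplp2 and -0.24 for Rps23. In edgeR's quasi-likelihood test of that difference with 12 libraries, adjusted p-values by Benjamini-Hochberg ran from 0.683 to 0.74, so that none was called, and unadjusted p-values were 0.0117 for Rps27l, 0.018 for Rpl27 and between 0.093 and 0.122 for the others. The 6 members were chosen by the same values that the test used, so their unadjusted p-values are no separate support. The directions of the burn effects depended on the scaling. With library size alone 71 of 76 members had a positive fold change for burn in young mice, Rpl26 with 0.0038, and 57 of 76 a positive difference of both burn effects. On that scale the median of all genes shifted too, by 0.24 and 0.25. Set against it the member median stood at -0.09 and -0.19. Young burn replicate 2 was the lowest young burn library for Rpl27, Rpl26, Rplp2 and Rps23, the highest for Rpl7a and between the others for Rps27l. Groups of 3 libraries are too small for a test of outlying samples.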

How the results depend on the processing

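Counts of members called moved with tool and filter. DESeq2 called 1 member between the sham groups, 4 between the burn groups, 1 (Rps27l) for burn in young mice and 1 (Rps9) in the burn term, and in the age term called Rpl3 and Rps20 (lower) in place of Rpl3 and Rpl13a. The shares of all genes that DESeq2 called are given above. With library size alone 1 member was called for burn in young mice (Rpl3, higher, adjusted p = 0.0497), where 615 of 12408 genes were called. In the age term 1 was called with that scaling (Rps20, lower), where 1960 genes were called. On that scale Rpl26 turned to 0.0038 for burn in young mice, from -0.24. Without the filter 0 members were called between the burn groups and 1 in the age term, where 1787 and 2776 of 28528 genes were called. A fit of the burn groups alone called 0, where 314 of 12167 genes were called. Same-numbered libraries of different groups correlated between -0.20 and 0.15 in their deviations from group means, over 0.1 in 3 of 18 pairs, so the numbers were not taken to pair mice. With the replicate block 1 member was called in the age term in place of 2, where 2323 of all genes were called. Rpl13a moved to an adjusted p of 0.0501, and no other count of members changed. Leaving out each library gave 0 to 2 members called between the sham groups, 0 to 1 between the burn groups and 1 to 6 in the age term. The 2 and 6 came without young burn replicate 2, where 1488 and 3708 of all genes were called. Where 0 members were called between the burn groups, 390 to 1010 of all genes were. Where 1 was called in the age term, 1832 to 2465 were. The burn difference of Rpl3l over Rpl3 ranged from -0.54 to -0.37. Between the sham groups, the log2 fold change of Rpl3l, -0.0024 with all libraries, ranged from -0.067 to 0.073 when a library was left out, and was 0.0062 with adult sham replicate 1 taken away. Scaling by DESeq2's size factors, leaving out mitochondrially encoded genes and adding pseudogene rows changed no count of members called. Depth and 3 mice per group limit small effects, and the median SE of a member was 0.12 between groups.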
